A study of Kluyveromyces marxianus and Saccharomyces cerevisiae with 12 samples.

Results

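The 25 loci at the right end of chromosome XV in *Saccharomyces cerevisiae* EC1118, a commercial wine strain, were compared between 20 h and 6 h of an alcoholic fermentation. The loci carry tags that start with EC1118_1O4_, and each starts within 80 kb of the last position covered by such a tag. They are 25 of the 6461 loci in the *S. cerevisiae* tables. The rule uses tags and positions only, though it was set with earlier results of these data known. RNA was sequenced from EC1118 at 20 h and at 6 h, with 3 samples each. Both groups grew at 25 °C in the same medium. Its sugar content was 230 g/l, its assimilable nitrogen, as ammonium and amino acids, was 200 mg/l, and phytosterols were present at 10 mg/l. No genetic change or added agent is named for either group, so the groups differ in the time of sampling and in whatever the yeast had done to the medium by then.

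This end of the chromosome holds the insertion known as region C, a block of DNA that some wine strains carry and the laboratory strain S288C lacks. Region C is known to come from another yeast species, *Torulaspora microellipsoides*, and to carry transporter genes, among them FSY1 for a fructose symporter and the FOT genes for oligopeptide transporters. Such genes are of interest in wine making because must contains fructose and peptides. The tables give no gene name for any of the 25 loci, so no role is assigned to a tag here, and which of the 25 lie inside the insertion was not analysed. Loci are called below by the last part of their tag, 6458g for EC1118_1O4_6458g.

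The label of the sequence was checked with small RNA genes. The sequence that carries the 1O4 tags held 592 loci, among them 11 named small nuclear and nucleolar RNA genes. All 11 are on chromosome XV in the S288C annotation, the only annotation at hand. Recovered totals were 7.67, 6.39 and 5.5 M fragments in 20 h replicates 1, 2 and 3, and 21.6, 9.34 and 1.51 M fragments in 6 h replicates 1, 2 and 3, the last from 1 of its 3 tables. Across genes, Spearman's rho was 0.979 between 20 h replicates 1 and 2 and 0.941 to 0.948 between these and replicate 3. Among the 6 h samples, replicates 2 and 3 were the closest pair (0.980), and replicate 1 reached 0.948 to 0.953 with them.

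The 25 loci span 79.5 kb, from position 1025404 to 1104923 of the sequence that carries the 1O4 tags, in the tables' own coordinates. Their lengths run from 543 to 4338 nt with a median of 1434 nt, and all 25 are multiples of 3, so these are coding lengths without untranslated regions. The loci are widely spaced. The median gap between neighbours was 1339 nt, against 448 nt for the 34 loci that start 80 to 160 kb from the same end, and the loci covered 44.8% of their span against 63.9% there. Tag numbers rise in steps of 11, and 4 of the 29 numbers in the range were not analysed here, which widens the gaps by an unknown amount. None of the 25 overlapped a neighbour. The closest pair, 6656g and 6667g, lies 71 nt apart, and the library kit does not keep the strand, so reads from overlapping ends of neighbouring transcripts cannot be told apart. The innermost of the 25, 6359g, starts at 1025404, and the nearest locus described here outside the 80 kb limit lies at 1022266 to 1022433. That short locus was listed at 0, 19.3 and 0 FPKM at 20 h and at 3.22, 0 and 14.3 FPKM at 6 h, while 6359g was above 10 FPKM in every sample.

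All 25 loci were above 0 in each of the 35 deposited tables, and all had the mean of at least 1 FPKM that the test required. FPKM is the number of fragments per kilobase of transcript, scaled to the mapped fragments of the library, so it follows a locus relative to the rest of the RNA, and a change in the amount of RNA per cell would not show. Between 20 h and 6 h, 14 of the 25 loci were higher at 20 h, 5 were lower and 6 did not pass (limma on log2(FPKM + 1), Benjamini-Hochberg adjusted p below 0.05 over all 5712 tested loci). Of all tested loci 60.3% were called, 39.7% higher at 20 h and 20.6% lower, so the count of lower loci is near the background and that of higher loci, 56.0% of the 25, is above it. The groups did not overlap for these 19 loci, 14 with 20 h above 6 h and 5 with 20 h below, while 45.3% of all tested loci had 20 h above without overlap and 23.6% had 20 h below. The median log2 difference was 1.39 over the 25 loci and 0.30 over all tested loci. A change of at least 4-fold was called for 7 loci upwards and 1 downwards, against 5.71% and 4.43% of all tested loci. The scale used moves the background: with median-of-ratios scaling the median of all loci moved by -0.32, and with quantile scaling by -0.28. The split of calls over all loci was then 1697 higher and 1755 lower, or 1704 higher and 1574 lower, in place of 2268 higher and 1176 lower. Under both, 14 of the 25 loci were higher and 7 lower, and their median lay 1.09 and 1.03 above that of all loci, against 1.09 in the deposited scaling. The 4-fold count depended on the scale. With median-of-ratios scaling the log2 differences of 6414g, 6557g, 6579g and 6667g were 1.80, 1.91, 1.72 and 1.92, below 4-fold. With quantile scaling those of 6557g and 6667g were below it, at 1.89 and 1.88. The share of all loci at 4-fold was not counted under these scalings.

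**Figure D1:**
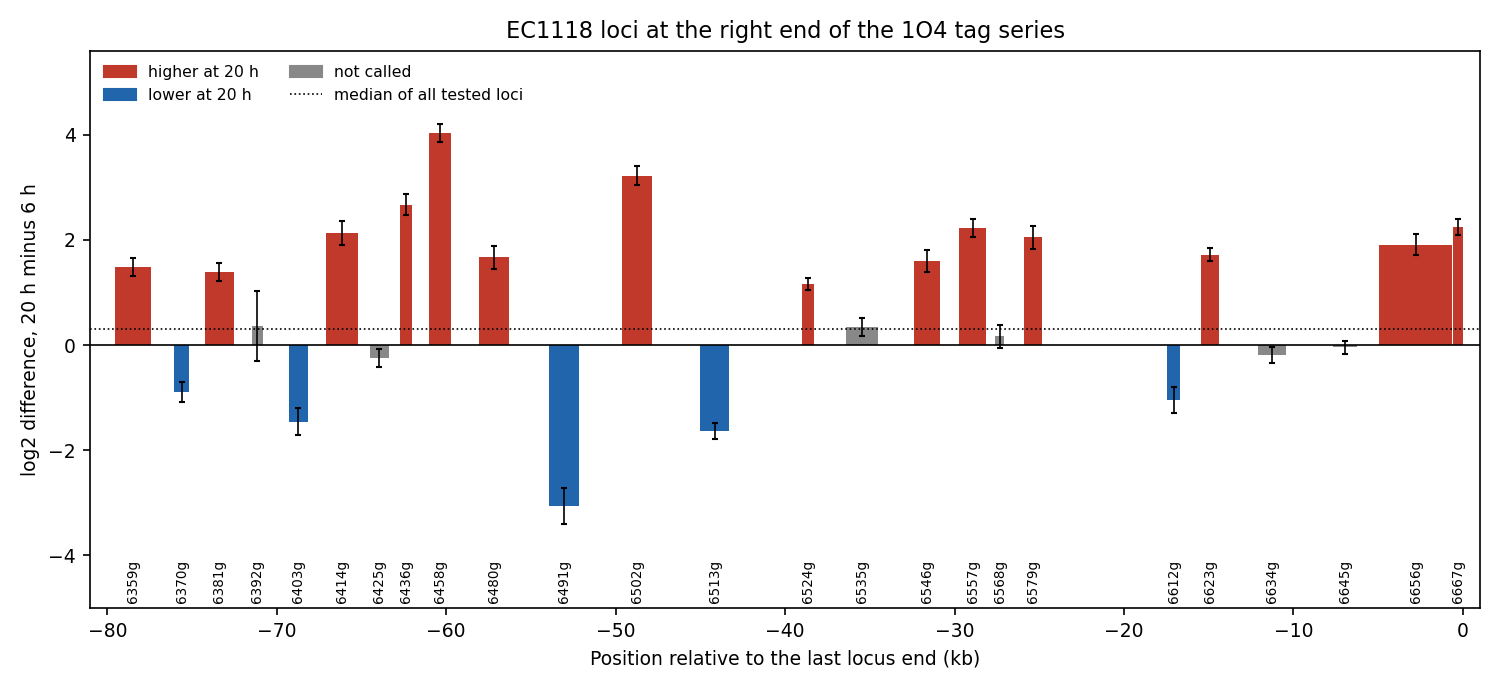
Log2 difference of FPKM + 1 (20 h minus 6 h, y axis) of the 25 loci along the last 80 kb, as bars drawn to the width and place of each locus in kb from the last locus end (x axis), with the standard error as a thin line. Red bars are higher at 20 h, blue bars lower and grey bars not called, and the dotted line is the median of all tested loci, 0.30. Higher and lower loci are mixed along the sequence, and the tallest bars are 6458g at 4.04 and 6502g at 3.23.

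The steepest rise was that of 6458g (1043900 to 1045213, 1314 nt). It was at 418, 366 and 517 FPKM in 20 h replicates 1, 2 and 3, against 22.6, 29.0 and 24.3 FPKM at 6 h. The lowest 20 h sample was thus far above the highest 6 h sample. The means were 434 ± 76.8 FPKM at 20 h and 25.3 ± 3.32 FPKM at 6 h (SD, n = 3 each), a ratio of 17.1. The log2 difference was 4.04 ± 0.18 (SE; limma adjusted p = 1.48e-05), which ranked 35 among the rises of all tested loci. Among the levels of all tested loci it stood at percentile 93.2 at 20 h and 38.6 at 6 h.

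The locus 6502g (1055314 to 1057065, 1752 nt) had 397, 395 and 529 FPKM at 20 h, against 54.6, 39.9 and 43.8 FPKM at 6 h. It had the highest mean of the 25 loci at 20 h, and its lowest 20 h sample was again far above its highest 6 h sample. Its log2 difference was 3.23 ± 0.19 (limma adjusted p = 3.45e-05), rank 78 among all rises. The 714 nt locus 6436g (1042171 to 1042884), which lies 1015 nt before 6458g, had 370, 325 and 392.3 FPKM at 20 h, against 60.4, 68.5 and 42.0 FPKM at 6 h. The log2 difference of 6436g was 2.67 ± 0.21 (limma adjusted p = 8.74e-05). Together these 3 loci changed more than the others of the end in the upward direction.

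The locus 6414g (1037843 to 1039714) was at 313, 300.0 and 416 FPKM at 20 h, against 57.0, 80.9 and 97.1 FPKM at 6 h. For 6579g (1079055 to 1080083) the values were 292, 292 and 339 FPKM at 20 h, against 57.5, 70.0 and 98.0 FPKM at 6 h. The locus 6546g (1072530 to 1074044) had 201, 186 and 252 FPKM at 20 h, against 52.5, 81.7 and 77.2 FPKM at 6 h. With 6502g, 6458g and 6436g these are the 6 loci with the highest mean over all samples, and all 6 were higher at 20 h without overlap. That ranking includes the 20 h values, so it favours loci that rose. By mean at 6 h alone the 6 ranked from 5 to 14. Ranks 1 to 4 at 6 h were held by 6491g, 6612g, 6392g and 6513g, none of them called higher. In each of the 6 with the highest mean over all samples, 20 h replicate 3 was the highest sample. This is not particular to them. The factor by which median-of-ratios scaling divides a sample was also largest there, 1.23 against 1.10 and 1.06 in 20 h replicates 1 and 2. The log2 differences were 2.13 ± 0.23 for 6414g, 2.05 ± 0.21 for 6579g and 1.60 ± 0.21 for 6546g.

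Loci of lower level rose by similar amounts. The last of the 1O4 loci by position, 6667g (1104372 to 1104923), had 59.7, 64.1 and 77.5 FPKM at 20 h, against 15.2, 12.0 and 12.8 FPKM at 6 h. Its neighbour 6656g (1099963 to 1104300), the longest of the 25, had 19.3, 15.7 and 23.4 FPKM at 20 h, against 3.77, 4.88 and 4.55 FPKM at 6 h. The log2 differences of this closest pair were 2.25 ± 0.15 and 1.91 ± 0.20. The locus 6557g (1075213 to 1076775) had 76.6, 79.8 and 66.3 FPKM at 20 h, against 11.9, 18.2 and 15.5 FPKM at 6 h, a log2 difference of 2.23 ± 0.17. The locus 6623g (1089461 to 1090537) had 95.3, 109 and 112 FPKM at 20 h, against 29.0, 34.0 and 30.8 FPKM at 6 h, a log2 difference of 1.72 ± 0.13. The lowest of the 25 in mean level, 6480g (1046857 to 1048644), had 14.1, 11.8 and 19.2 FPKM at 20 h, against 3.69, 4.31 and 3.89 FPKM at 6 h, a log2 difference of 1.67 ± 0.22. In none of these did a 20 h sample reach down to a 6 h sample. The remaining higher loci, 6359g, 6381g and 6524g, were at 40.9 to 62.4 FPKM at 20 h and 14.2 to 27.5 FPKM at 6 h, with log2 differences of 1.48, 1.39 and 1.16. Over the 14 higher loci the limma adjusted p ran from 1.48e-05 to 0.000781.

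**Figure D2:**
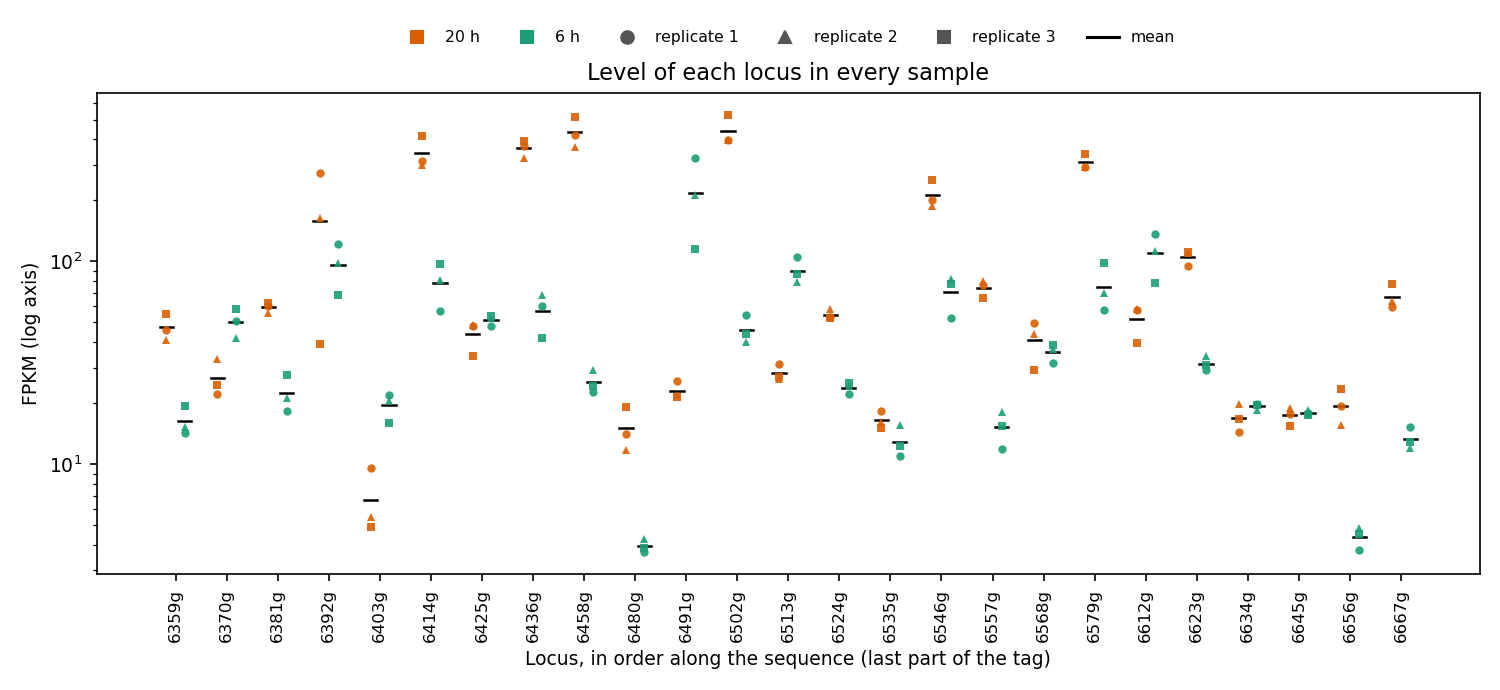
FPKM (log axis) of each of the 25 loci in each sample, in order along the sequence, with 20 h in orange left of 6 h in green, replicates as different symbols and the mean of 3 as a black line. The 20 h points of 6458g, at 366 to 517 FPKM, stand far above its 6 h points, the 20 h points of 6491g, at 21.4 to 25.7 FPKM, stand far below its 6 h points, and 6392g has the widest spread at 20 h.

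The largest fall was that of 6491g (1050973 to 1052751, 1779 nt). It had 25.7, 22.0 and 21.4 FPKM at 20 h, against 323, 212 and 115 FPKM at 6 h. The 20 h samples lay close together and all 3 were far below the lowest 6 h sample, while the 6 h samples spread widely. Its mean was 23.05 ± 2.31 FPKM at 20 h and 217 ± 104 FPKM at 6 h (SD, n = 3 each). The log2 difference was -3.06 ± 0.35 (limma adjusted p = 0.000401), rank 84 among all falls, and ran from -3.46 to -2.72 when each sample was left out in turn or another setting was used. By mean it ranked 19 of the 25 at 20 h, and it was the most abundant of them in each 6 h sample.

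The locus 6513g (1059884 to 1061638, 1755 nt) had 31.1, 26.3 and 26.8 FPKM at 20 h, against 105, 78.8 and 86.5 FPKM at 6 h, a log2 difference of -1.64 ± 0.15. The pair 6491g and 6513g, both lower, flanks 6502g, one of the steepest rises, and the 3 neighbours have coding lengths of 1779, 1752 and 1755 nt. A similar length, 1788 nt, is found in 6480g, which comes just before 6491g and was higher at 20 h. The locus 6403g (1035633 to 1036763) had 9.57, 5.504 and 4.92 FPKM at 20 h, against 22.0, 20.6 and 15.9 FPKM at 6 h, a log2 difference of -1.46 ± 0.26. It had the lowest mean of the 25 at 20 h. Some tables of 6 h replicates 1 and 2 read higher for 6403g than the rest. Its median over tables was 15.9 and 15.7 FPKM in these samples, below the means given. Over the alternatives its log2 difference ran from -1.90 to -1.08. The locus 6612g (1087467 to 1088249) had 57.4, 58.5 and 39.7 FPKM at 20 h, against 136, 113 and 78.7 FPKM at 6 h, a log2 difference of -1.05 ± 0.25. Last, 6370g (1028883 to 1029755) had 22.3, 33.0 and 24.7 FPKM at 20 h, against 50.7, 41.9 and 58.4 FPKM at 6 h, a log2 difference of -0.90 ± 0.19. The fall of 6370g was the smallest of the 5, though its groups did not overlap, and over the 5 lower loci the limma adjusted p ran from 0.000167 to 0.00905.

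Of the 6 loci that did not pass, 6392g had the widest spread. It was at 272, 164 and 39.1 FPKM in 20 h replicates 1, 2 and 3, against 122, 98.5 and 68.0 FPKM at 6 h. The 20 h samples reached both above and below all 6 h samples. Its log2 difference was 0.36 ± 0.66 (limma adjusted p = 0.658; range over the alternatives 0.0227 to 0.972). The call turned on 20 h replicate 3: without it the log2 difference was 1.16 with a limma adjusted p of 0.0227, and without 20 h replicate 1 the difference was -0.22. The other 5 were 6425g, 6535g, 6568g, 6634g and 6645g, with log2 differences from -0.25 to 0.34 and limma adjusted p-values from 0.127 to 0.781. Their means ran from 16.6 to 43.7 FPKM at 20 h and from 12.9 to 51.6 FPKM at 6 h. The neighbours 6634g and 6645g were at nearly the same level at both times, 17.0 ± 2.75 and 17.4 ± 1.77 FPKM at 20 h and 19.3 ± 0.625 and 18.0 ± 0.443 FPKM at 6 h (SD, n = 3 each). Both were lower at 20 h with quantile scaling, by log2 differences of -0.67 (limma adjusted p = 0.0116) for 6634g and -0.53 (0.0129) for 6645g. With median-of-ratios scaling 6425g and 6634g were lower (adjusted p = 0.0401 and 0.0326).

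The order of the loci by level was not the same at both times. Spearman's rho between the mean levels at 20 h and 6 h was 0.42 over the 25 loci, a description only, since loci of 1 library are not independent. The leading loci at 20 h were 6502g, 6458g, 6436g, 6414g and 6579g, each with a mean of 308 FPKM or more, and at 6 h the leading ones were 6491g, 6612g and 6392g. At 20 h 7, 8 and 7 of the 25 were at 100 FPKM or above in replicates 1, 2 and 3, against 4, 2 and 1 at 6 h. Of all tested loci 26.6% to 30.6% were at that level in the 20 h samples and 25.5% to 26.2% in the 6 h samples, so the 20 h counts are near the background and the 6 h counts below it. The 25 loci summed to 2973 ± 213 FPKM at 20 h and 1203 ± 113 FPKM at 6 h (SD, n = 3 each), or 0.273% and 0.106% of all FPKM. The sum rests on few loci: the top 3 made up 39.4% to 45.9% of it at 20 h and 28.6% to 44.4% at 6 h.

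**Figure D3:**
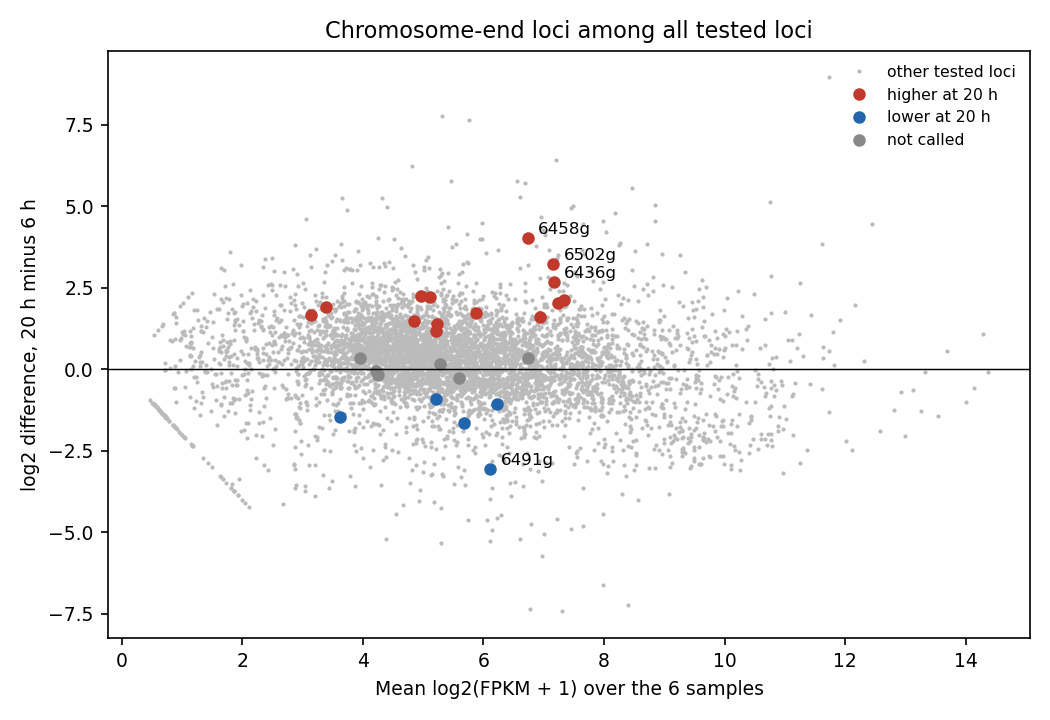
Log2 difference (20 h minus 6 h, y axis) against the mean log2(FPKM + 1) over the 6 samples (x axis) for the 25 loci, coloured by call, and for the other tested loci in grey. The loci lie at mean levels from 3.14 to 7.34 on the x axis, 6458g, 6502g and 6436g stand above most loci of their level, and 6491g stands below most with a log2 difference of -3.06.

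In the loci next to this end the median difference was close to that of all loci. Of the 34 loci that start 80 to 160 kb from the same end, 32 were tested, and 13 were higher and 6 lower at 20 h, with a median log2 difference of 0.27. All 1O4 loci outside the 25, which include these 34, number 547, and 498 of them were tested, with 198 higher, 101 lower and a median of 0.28. In the deposited scaling, a change of at least 4-fold was called for 4 of the 32 and 52 of the 498, against 8 of the 25. The median level of the 25 loci was 51.9 FPKM at 20 h and 31.3 FPKM at 6 h, against 47.1 and 37.8 FPKM for all tested loci. These are descriptions, and whether the chromosome end differs from the other loci as a group was not tested.

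**Figure D4:**
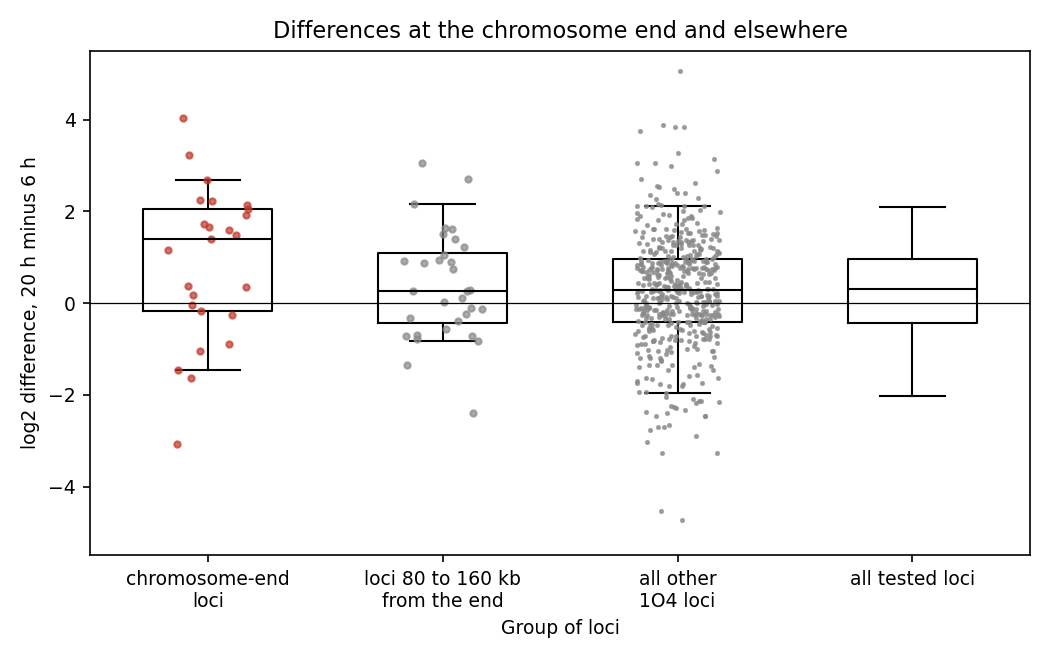
Log2 difference (20 h minus 6 h) in the 25 loci of the chromosome end, the loci 80 to 160 kb from that end, all 1O4 loci outside the 25 (those at 80 to 160 kb included) and all tested loci; boxes give the quartiles and the median, whiskers the 5th and 95th percentiles, and points single loci, which are not drawn for all tested loci. The median of the 25 is 1.39, against 0.27, 0.28 and 0.30 in the others, and the 25 also include falls down to -3.06.

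Higher and lower loci were mixed along the sequence. Neighbours here are loci next to each other among the 25, and 4 tag numbers in the range were not analysed. Of the 24 pairs of neighbours, 4 had both members higher, 0 had both lower, 9 had 1 higher and 1 lower, and 11 included a locus that did not pass. The longest run of higher loci was 6436g, 6458g and 6480g, over 6.47 kb. The pairs within this run are not consecutive tags, since a tag number not analysed falls between 6436g and 6458g and between 6458g and 6480g. The same holds between 6579g and 6612g. Spearman's rho of the log2 difference was 0.11 with the position and 0.015 with the length over the 25 loci, given as descriptions.

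The precision behind the values differed between samples. The fragments of a locus, summed over the tables with a recovered depth, ran from 12 for 6667g in 6 h replicate 3, where 1 of 3 tables could be counted, to 17330 for 6491g in 6 h replicate 1. The coefficient of variation of a locus over the tables of 1 sample had a median of 9.25% at 20 h and 12.3% at 6 h, below the median between samples, 16.1% at 20 h and 16.4% at 6 h. Between samples it was largest for 6392g at 20 h, 73.6%, and for 6491g at 6 h, 47.9%. Within a sample these loci varied far less: 6392g ran from 246 to 292 FPKM over the tables of 20 h replicate 1 and from 35.2 to 42.3 FPKM over those of replicate 3, and 6491g from 115 to 116 FPKM over those of 6 h replicate 3. For both loci the tables of those samples thus lay closer together than the samples did. In 6 h replicate 2, a single table held 0.082 M fragments, and there 6392g was at 34.8 FPKM against 104 to 123 FPKM in the other tables, and 6403g at 45.4 FPKM against 13.8 to 19.2 FPKM. No sequence of EC1118 was used here, so near-identical copies were not looked for, and the values of loci that share reads with such a copy would be uncertain.

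**Figure D5:**
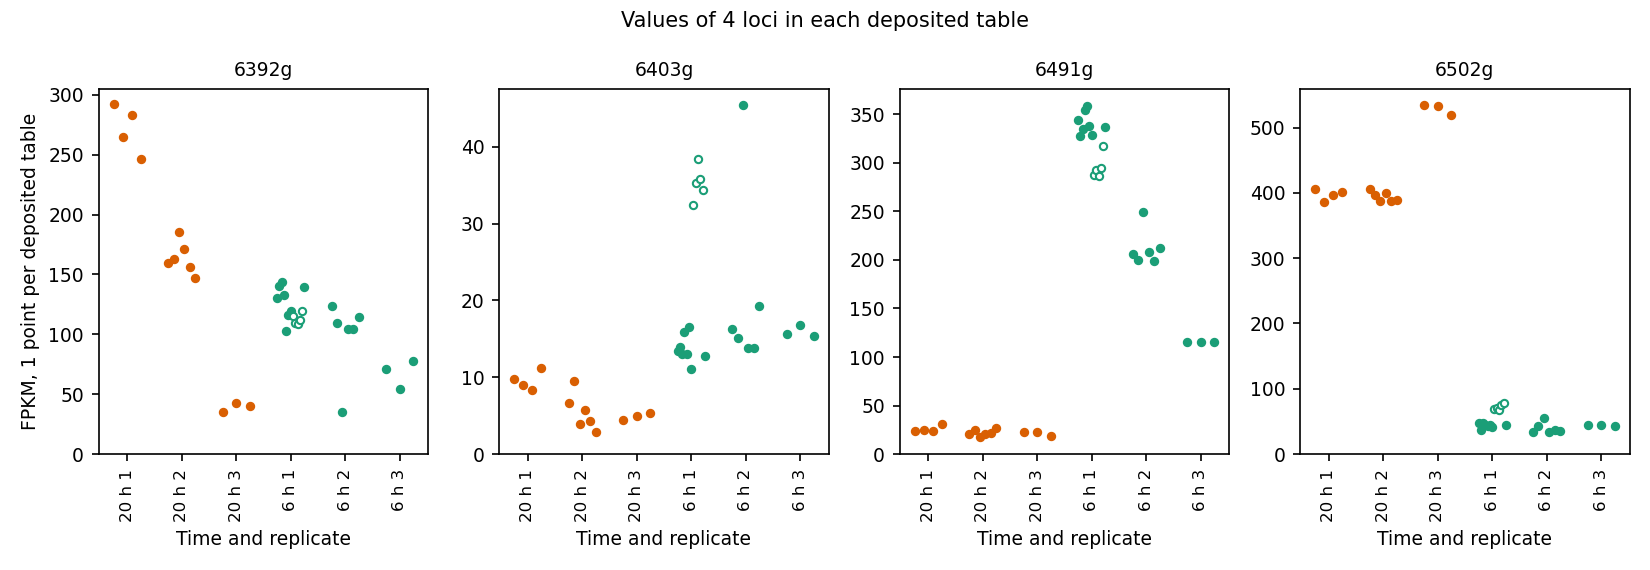
FPKM of 6392g, 6403g, 6491g and 6502g (y axis, from 0) in each deposited table, grouped by time and replicate (x axis), with 20 h in orange and 6 h in green; open points are the smaller set of tables of 6 h replicate 1. In 6 h replicate 1 the smaller set stands above the larger for 6403g, at 32.5 to 38.4 FPKM, and 6502g, at 67.4 to 77.5 FPKM.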

How the data were processed

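Libraries were made from phenol-extracted total RNA with the TruSeq V2 kit, per the labels' protocols. Tools listed in the submitters' processing notes, with no roles, are Cuffdiff 2.2.1.5, Cufflinks 2.2.1.2, TopHat2 2.0.8, FastQC 0.10.1 and Trim Galore 0.4.3.1. For build and annotation, nothing is given in the sources used here. The authors deposited FPKM with lower and upper bounds per locus, per the file headers, in 35 tables for the 6 samples used, 3 to 13 a sample. How the tables of a sample differ is not stated. They were averaged, leaving out values not marked OK (126 in all, 0 in the loci described). Coordinates are those of the tables, counted from 1.

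Loci with a mean of at least 1 FPKM were tested on log2(FPKM + 1) with limma 3.58.1 (R 4.3.3), with an intensity trend, 20 h minus 6 h, and Benjamini-Hochberg adjustment over 5712 loci. Fold changes on this scale understate those of low loci. The test was also run on simulated independent values in which few loci changed, unlike these data. That run does not show how reliable the calls are here. Separate cultures are not named in the labels, so the p-values reflect how far these samples spread, possibly for technical reasons. Fragment numbers were recovered from the FPKM and its upper bound, as the square of 2 FPKM over the gap between both, in 33 tables where at least 50% of values under 5.5 fragments were whole within 0.02. Totals are approximate.

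Values in every sample are given for up to 10 called loci in each direction, the 6 with the highest mean, loci with a gene name, and loci above 0 at only 1 time; the last 2 parts named none. 6392g, 6634g and 6645g were described in full after their values were seen. The loci and rules were chosen with earlier results of these data known. Alternatives were other pseudocounts, filters, scalings and ways of combining tables, no trend, a replicate block, and leaving out each sample.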

Additional observations from a re-analysis of the deposited data

How the results depend on the processing

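All 19 called loci of the chromosome end kept their direction and their call under each of the 19 alternatives, 3 of which were chosen after seeing the data (without the 2 shallowest tables, and 6 h replicate 1 from either of 2 sets of its tables). The number of higher loci was 14 or 15 and that of lower loci 5 or 7. Over all loci, the counts ran from 1977 to 2170 higher and 958 to 1263 lower with 1 sample left out. Of the 6 loci not called, 5 passed under some alternative. For 6535g the adjusted p was 0.0432 with the median over tables and 0.0249 without small tables, and its log2 difference was -0.16 with quantile scaling. For 6568g it was -0.16 with median-of-ratios and -0.15 with quantile scaling, and it passed under none. With samples left out, the log2 difference of 6392g ran from -0.22 to 1.16 and that of 6645g from -0.11 to 0.031. The median level of the 25 loci at 6 h was 35.0 FPKM with median-of-ratios scaling in place of 31.3 FPKM. The cause of these changes was not tested, beyond the shift of all loci that scaling makes. Whether replicate numbers pair the samples is not known. The correlation of same-numbered deviations was -0.12, 0.17 and 0.032, and 2 of 6 samples correlated best with their own number. With 3 samples at each time, these values cannot settle the pairing. With a replicate block 2138 loci were higher and 1101 lower, and 14 and 5 of the 25. Depth is known for only 1 of the 3 tables of 6 h replicate 3, which holds 12 fragments of 6667g.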

Other observations

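The 13 tables of 6 h replicate 1 fell into 2 sets, of 8 and 5 tables, when they were grouped by their correlation over loci with a mean of at least 20 FPKM. The mean correlation was 0.843 between the sets, 0.946 within the larger and 0.928 within the smaller. For 5 of the 25 loci the sets did not overlap. The sets were formed from the values themselves, so some loci are bound to separate. The share of all loci that did so was not counted, so the 5 cannot be read as particular to this end. The locus 6403g was at a mean of 35.3 FPKM in the smaller set and 13.7 FPKM in the larger, and 6502g at 72.2 and 43.6 FPKM. For 6513g the means were 126 and 92.4 FPKM, for 6491g 296 and 340 FPKM, and for 6370g 41.2 and 56.6 FPKM. How these tables differ is not stated, and all 13 entered the mean of this sample.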
